A study of Mus musculus with 6 samples.

Results

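Slit ligands, Robo receptors, netrins and netrin receptors were examined in mouse neural stem cells (NSC). The 10 genes were taken by name, as *Slit1*, *Slit2*, *Slit3*, *Robo1*, *Robo2*, *Robo3*, *Ntn1*, *Ntn4*, *Dcc* and *Unc5b*, from the 50686 gene identifiers in the count files, by a rule that uses no measured value, though with earlier results of these data known. RNASeq was available for 2 cultures of NSC from wild-type E16.5 embryos and 2 cultures labelled NSC Bmi1Over, from STOPFloxBmi1;NestinCre embryos of the same age, in which Cre under the Nestin promoter removes a stop sequence in front of a *Bmi1* transgene in cells that have expressed Nestin. H3K27me3, the histone mark deposited by Polycomb repressive complex 2, was available as 1 list of ChIPSeq peaks for each genotype. The NSC were isolated from the subventricular zone of the cerebral hemispheres and grown with EGF and FGF as neurospheres or as an adherent layer, and the labels do not say which was sequenced. The mGIC samples were not analysed here.

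Slits are secreted proteins that bind Robo receptors and repel growing axons and migrating neurons, and Slit from the choroid plexus and septum guides neuroblasts leaving the subventricular zone. Netrins are secreted, laminin-related proteins that attract axons through the receptor Dcc and repel them through Unc5 receptors. In the ventral midline of the neural tube, cells of the floor plate secrete both kinds of ligand.

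Reads counted on genes ranged from 18112100 to 61353076 per library, the lowest and the highest both in libraries labelled NSC Bmi1Over. Unmapped reads made up 11.2% and 13.7% of the NSC libraries against 16.2% and 17.6% of those labelled NSC Bmi1Over, and the 10 most abundant genes took 5.23% and 6.48% against 8.57% and 10.1% of counted reads. Both shares moved with genotype and their part in the results below was not tested. *Bmi1* itself was at 133.3 and 123.5 CPM (counts scaled to the TMM-normalised library size) in NSC and at 118.6 and 112.6 CPM in the libraries labelled NSC Bmi1Over, so that reads of the mouse gene were not higher under that label. As reads of the transgene may not be counted on the mouse gene, the label could not be checked, and genotypes are named below as labelled. All 8 neural stem cell markers listed were expressed, summing to 6024 and 6700 CPM in NSC and to 6544 and 6730 CPM in the other genotype. None of the 8 was called by edgeR, 6 had a negative log2 fold change (*Sox2* of −0.42, adjusted p = 0.129), and without *Slc1a3*, which was at 1839 and 2228 CPM in NSC against 2533 and 3063 CPM, the sums were 4185 and 4472 CPM against 4011 and 3667 CPM. The 8 oligodendrocyte lineage markers summed to between 2481 and 2609 CPM, mostly *Olig1* (1020 to 1419 CPM) and *Olig2* (825 to 1007 CPM). None of them was called by edgeR. *Pdgfra* was at 27.9 and 34.4 CPM in NSC and at 16.5 and 44.5 CPM in the libraries labelled NSC Bmi1Over, and *Sox10* at no more than 4.64 CPM. The 5 astrocyte markers summed to 219 and 177 CPM in NSC against 170 CPM or less. Of these 5, *Aldh1l1* fell, at 122.2 and 94.2 CPM in NSC and at 66.0 and 53.3 CPM in the libraries labelled NSC Bmi1Over (adjusted p = 0.0440, edgeR), while the other 4 summed to 97.2 and 83.0 CPM against 104 and 95.7 CPM. The part of these markers in the results was not tested. The 5 microglial markers summed to at most 0.237 CPM in any library, and the 5 mesenchymal markers to at most 1.07 CPM. *C1qa* of the microglial list and *Cldn5* of the endothelial list had no read in any library.

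The sequences under the H3K27me3 peaks of the 2 *Slit* genes, and those upstream of *Slit2*, *Robo1* and *Unc5b*, are given first, with each CpG dinucleotide in capitals, since CpG-dense sequence is a known property of Polycomb targets in mouse. Within the *Slit1* promoter peak of NSC, the first 189 bases of the coding sequence (chr19:41743220-41743408 of mm10, minus strand, in coding exon 1) held 18 CpG.
Slit1 coding bases under the promoter peak: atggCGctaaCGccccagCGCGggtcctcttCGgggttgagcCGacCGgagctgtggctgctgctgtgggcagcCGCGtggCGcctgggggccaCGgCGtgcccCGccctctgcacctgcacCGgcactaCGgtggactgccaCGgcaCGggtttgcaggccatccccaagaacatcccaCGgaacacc
The middle 300 bases of the first *Slit2* promoter peak of NSC (chr5:47985998-47986297, plus strand, in an intron of *Slit2*) held 23 CpG.
Slit2 centre of the intronic promoter peak: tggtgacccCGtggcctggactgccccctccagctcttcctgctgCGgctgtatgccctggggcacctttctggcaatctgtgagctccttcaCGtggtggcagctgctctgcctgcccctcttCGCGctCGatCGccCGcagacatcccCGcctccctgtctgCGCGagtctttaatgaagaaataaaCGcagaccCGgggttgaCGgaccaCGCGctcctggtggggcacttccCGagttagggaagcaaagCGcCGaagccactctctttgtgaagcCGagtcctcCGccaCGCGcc
A peak of NSC near the 3′ end of *Slit1* (chr19:41614795-41615008, minus strand, overlapping coding exon 27) held 2 CpG in 214 bases.
Slit1 gene-body peak: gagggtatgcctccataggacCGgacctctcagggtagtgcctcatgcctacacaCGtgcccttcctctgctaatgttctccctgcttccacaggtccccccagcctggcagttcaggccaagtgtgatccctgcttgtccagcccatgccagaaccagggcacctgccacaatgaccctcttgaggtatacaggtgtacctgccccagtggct
These 3 windows spanned from 9.52 CpG per 100 bases in the first to 0.935 in the last, so that a peak was present on CpG-dense and on CpG-poor sequence of the same gene.

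Promoter windows of 300 bases, from 250 bases before to 50 bases after the RefSeq start (GRCm38), matched 7 of the 10 genes, all but *Slit1*, *Ntn1* and *Dcc*. The 250 bases before the start are shown for *Slit2*, which had peaks downstream of it, and for *Robo1* and *Unc5b*, which changed between the genotypes. For *Robo1* the RefSeq start used, at 72663149, lies inside the gene, whose outermost annotated start is at 72308306. The sequence and CpG count of *Robo1* thus do not describe that outermost start.
Slit2 (chr5:47982905-47983154, plus strand): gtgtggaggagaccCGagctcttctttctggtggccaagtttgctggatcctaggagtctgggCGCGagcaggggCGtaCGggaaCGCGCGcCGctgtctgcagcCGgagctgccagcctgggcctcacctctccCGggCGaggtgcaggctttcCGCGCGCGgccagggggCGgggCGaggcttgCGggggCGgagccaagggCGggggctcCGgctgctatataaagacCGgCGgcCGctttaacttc
Robo1 (chr16:72662899-72663148, plus strand): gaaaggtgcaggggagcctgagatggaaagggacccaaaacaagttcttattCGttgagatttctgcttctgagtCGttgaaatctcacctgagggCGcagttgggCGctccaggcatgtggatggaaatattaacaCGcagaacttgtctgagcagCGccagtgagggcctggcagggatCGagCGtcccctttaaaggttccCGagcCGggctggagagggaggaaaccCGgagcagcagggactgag
Unc5b (chr10:60831582-60831831, minus strand): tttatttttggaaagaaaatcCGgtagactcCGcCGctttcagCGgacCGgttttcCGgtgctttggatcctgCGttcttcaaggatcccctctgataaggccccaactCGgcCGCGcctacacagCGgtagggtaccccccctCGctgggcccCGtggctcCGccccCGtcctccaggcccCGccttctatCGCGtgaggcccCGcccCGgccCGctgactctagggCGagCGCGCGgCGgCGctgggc
Counted over the whole 300 bases on 1 strand (CG reads the same on both), CpG numbered 30 at *Slit2*, 15 at *Robo1* and 36 at *Unc5b*, and at least as many were held by 11.7%, 34.6% and 6.23% of the 32851 RefSeq promoters, whose median was 7. The window of *Slit3* held 41 CpG, that of *Ntn4* 31, that of *Robo3* 17 and the 3 windows of *Robo2* 9, 5 and 17. *Slit3*, the richest of them, had neither a peak nor more than 11 reads in any library. The *Robo2* windows with 9 and 5 CpG had RefSeq starts at 75447293 and 75092770, upstream of the annotated gene, whose outermost start is at 74411825.

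In the libraries labelled NSC Bmi1Over, the Slit receptor *Robo1*, the netrin *Ntn1* and the netrin receptor *Unc5b* rose between 1.71-fold and 1.94-fold against NSC. Of the 10 genes, 9 had enough reads to be tested, 3 were called at an adjusted p under 0.05 and all 3 were higher. Over all 15521 genes tested by edgeR's quasi-likelihood test, 334 (2.15%) were called and 315 (2.03%) were called as higher. The median log2 fold change was 0.49 for the 9 genes and −0.01 for all genes. In 7 of the 9, both libraries labelled NSC Bmi1Over lay above both NSC libraries, an order found in 29.0% of all genes tested. In bulk samples, fewer cells of a type and less RNA per cell cannot be told apart. With 2 cultures per genotype, an exact permutation test of 1 gene cannot give a two-sided p below 0.333, so that the p-values below rest on the spread that edgeR shares across genes.

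**Figure D1:**
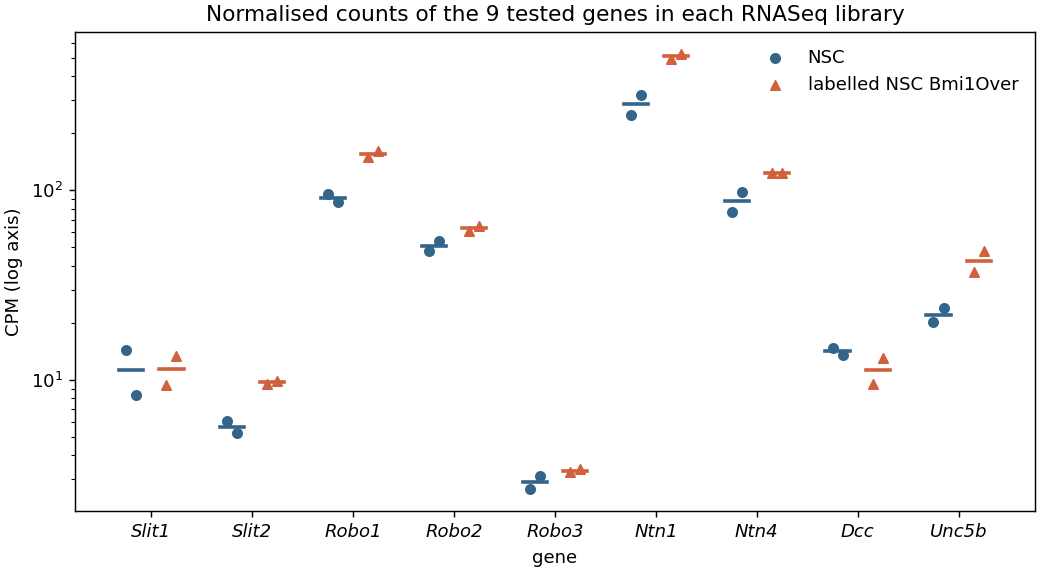
CPM (log axis) of the 9 tested genes in the 2 NSC libraries (blue circles) and the 2 libraries labelled NSC Bmi1Over (orange triangles), with the mean of each genotype as a bar. *Ntn1* is the most abundant, between 248.5 and 524.3 CPM. *Robo1*, *Ntn1*, *Unc5b* and *Slit2* show a clear gap between genotypes, and of these *Slit2* was not called by edgeR. *Slit3*, which had no read in 1 library, is not drawn.

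Among the ligands of Robo receptors, *Slit1* and *Slit2* were detected in every library and *Slit3* was nearly silent. Per length in NSC, 53.1% of protein-coding genes were lower than *Slit1* and 46.1% were lower than *Slit2*. *Slit1* (ENSMUSG00000025020), a Slit made mainly in the nervous system, lies on the minus strand of chromosome 19 from 41600257 to 41743665. It was at 14.4 and 8.35 CPM in NSC and at 9.37 and 13.4 CPM in the libraries labelled NSC Bmi1Over. The 2 genotypes overlapped, and the difference between the NSC cultures was as wide as the whole range. Its log2 fold change was 0.02 (standard error 0.28, adjusted p = 0.971, edgeR), and the sign changed when 1 culture was left out, between −0.32 and 0.46.

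*Slit2* (ENSMUSG00000031558, plus strand of chromosome 5, 47983138 to 48307733), the Slit best known as a repellent of commissural axons and migrating neuroblasts, was at 6.05 and 5.22 CPM in NSC and at 9.54 and 9.90 CPM in the libraries labelled NSC Bmi1Over. The genotypes did not overlap, and within each of them the cultures were close. The log2 fold change of 0.79 (standard error 0.19) was as large as that of *Robo1*, with an adjusted p of 0.0683 in edgeR that missed the threshold. DESeq2 gave an adjusted p of 0.0303, and 4 of 12 alternative settings called it.

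*Slit3* (ENSMUSG00000056427, plus strand of chromosome 11, 35121224 to 35708507), the third family member, had 0 and 1 reads in NSC and 4 and 11 reads in the libraries labelled NSC Bmi1Over. A count of 0 in the first NSC library allows up to 0.0950 CPM (3 counts). Per normalised library size the read rate in the libraries labelled NSC Bmi1Over was 11.4 times that of NSC, with an exact 95% counting interval of 1.76 to 481 that covers counting error only. The gene was too low for the test. With no filter on low counts, its adjusted p in edgeR was 0.113.

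*Robo1* (ENSMUSG00000022883, plus strand of chromosome 16, 72308306 to 73046095), a main receptor for Slits on axons and on cortical progenitors, was at 95.6 and 86.4 CPM in NSC and at 149.3 and 161.8 CPM in the libraries labelled NSC Bmi1Over. Both NSC cultures were far below both others. It rose by a log2 fold change of 0.77 (standard error 0.13, adjusted p = 0.0353, edgeR), and was called in the 8 alternative settings that used all 4 libraries, with adjusted p between 4.22e-05 and 0.0403. With 1 culture left out, adjusted p was between 0.0113 and 0.0459. Such fits leave 1 library in a genotype, take the spread from the other genotype and assume that the lone library varies alike, here and for the genes below.

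*Robo2* (ENSMUSG00000052516, minus strand of chromosome 16, 73891839 to 74411825), which shares Slit binding with Robo1, was at 47.6 and 54.1 CPM in NSC and at 61.4 and 64.9 CPM in the libraries labelled NSC Bmi1Over. The genotypes did not overlap, but the step was smaller, with a log2 fold change of 0.31 (standard error 0.12, adjusted p = 0.175, edgeR). *Robo3* (ENSMUSG00000032128, minus strand of chromosome 9, 37415669 to 37433246), a divergent Robo that opposes repulsion in commissural axons before they cross the midline, was at 2.66 and 3.13 CPM in NSC and at 3.26 and 3.39 CPM in the libraries labelled NSC Bmi1Over. These values nearly touched, and the log2 fold change was 0.21 (standard error 0.24, adjusted p = 0.612, edgeR). *Robo1* is thus the single Robo gene of the 3 that passed the test, and whether its change differed from those of *Robo2* and *Robo3* was not tested.

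*Ntn1* (ENSMUSG00000020902, minus strand of chromosome 11, 68209364 to 68400823), which encodes netrin-1, the founding attractant of commissural axons, was at 248.5 and 320.0 CPM in NSC and at 494.6 and 524.3 CPM in the libraries labelled NSC Bmi1Over. The higher NSC culture was still well below the lower of the other 2 libraries. The NSC cultures averaged 284 ± 50.6 CPM (SD, n = 2), and the libraries labelled NSC Bmi1Over averaged 509 ± 21.0 CPM (SD, n = 2). Its log2 fold change of 0.84 (standard error 0.17) had an adjusted p of 0.0484 in edgeR, close to the threshold. The call was lost without the first NSC culture (adjusted p = 0.437) and without the second culture labelled NSC Bmi1Over (0.0720), and with DESeq2's size factors (0.0554) or a filter of 1 CPM (0.0525).

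*Ntn1* is also a gene of the floor plate, and the 5 other floor plate genes listed summed to 273 and 231 CPM in NSC against 632 and 525 CPM in the libraries labelled NSC Bmi1Over. Nearly all of this sum was *Spon1* (F-spondin), at 271.4 and 228.6 CPM against 629.1 and 521.6 CPM, which rose by a log2 fold change of 1.20 (standard error 0.17, adjusted p = 0.0216, edgeR). The defining floor plate genes were near 0, with *Foxa2* at 1 read in all 4 libraries together and *Shh* between 0.158 and 0.682 CPM. All 4 listed genes that could be tested had a positive log2 fold change, with a median of 0.77, and *Spon1* alone was called. Among them *Sulf1* was at 1.01 and 1.31 CPM in NSC against 1.77 and 1.98 CPM. Of the neuronal list, *Syt1* was called as higher (adjusted p = 0.0428, edgeR), at 9.13 and 27.2 CPM in NSC and at 66.5 and 95.8 CPM in the libraries labelled NSC Bmi1Over, whereas 4 of the 6 genes of that list had a negative log2 fold change, none of them called. *Map2* made up most of the list's sum, and without it the sum was 51.6 and 67.2 CPM in NSC against 93.1 and 138 CPM, where *Syt1* was the largest part of the latter values. The part of these genes in the result for *Ntn1* was not tested.

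*Ntn4* (ENSMUSG00000020019, plus strand of chromosome 10, 93640681 to 93747207), which encodes netrin-4, a netrin that binds laminin in basement membranes, was at 77.1 and 98.1 CPM in NSC and at 123.4 and 123.1 CPM in the libraries labelled NSC Bmi1Over. The genotypes did not overlap. The log2 fold change was 0.49 (standard error 0.14, adjusted p = 0.0942, edgeR), and 4 of 12 alternative settings called it, DESeq2 among them (adjusted p = 0.0430).

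The log2 fold changes of the netrin receptors *Dcc* and *Unc5b* had opposite signs, and only that of *Unc5b* passed the test. *Dcc* (ENSMUSG00000060534, minus strand of chromosome 18, 71253634 to 72351069), the receptor for attraction to netrin-1, was at 14.7 and 13.6 CPM in NSC and at 9.54 and 13.1 CPM in the libraries labelled NSC Bmi1Over. The upper of the latter values lay just below the NSC cultures. *Dcc* was the single tested gene of the 9 with a negative log2 fold change, −0.30 (standard error 0.19, adjusted p = 0.354, edgeR), and no alternative called it. *Unc5b* (ENSMUSG00000020099, minus strand of chromosome 10, 60762593 to 60831581), a netrin receptor for repulsion that is also used in vessels, was at 20.2 and 24.1 CPM in NSC and at 37.1 and 48.1 CPM in the libraries labelled NSC Bmi1Over. All values of the 1 genotype exceeded all of the other. Its log2 fold change of 0.95 (standard error 0.16) was the largest of the 9 and had an adjusted p of 0.0370 in edgeR. The call held in 11 of 12 alternative settings and was lost without the second culture labelled NSC Bmi1Over (adjusted p = 0.0552). Beside *Unc5b*, the 4 endothelial markers summed to 1.14 and 1.94 CPM in NSC and to 2.63 and 2.82 CPM in the libraries labelled NSC Bmi1Over, mostly *Tek*, with *Cldn5* at 0 and *Cdh5* at no more than 4 reads in any library. Their part in the result was not tested.

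**Figure D2:**
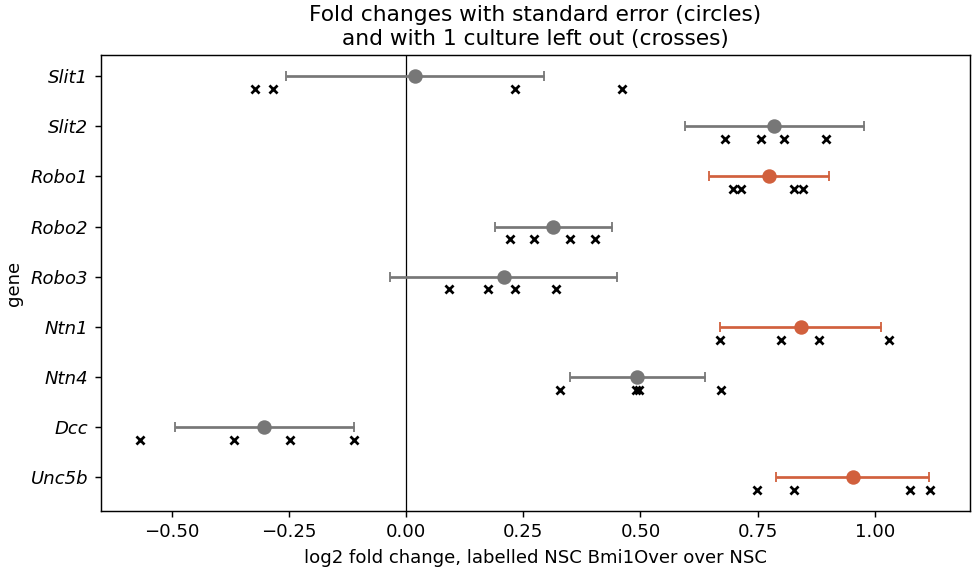
Log2 fold change of the libraries labelled NSC Bmi1Over over NSC for the 9 tested genes (circles, with 1 standard error as bars, orange where called and grey where not) and the 4 values with 1 culture left out (crosses). *Unc5b*, *Ntn1*, *Slit2* and *Robo1* lie between 0.77 and 0.95, the crosses of *Slit1* fall on both sides of 0 and those of *Dcc* are all negative.

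Levels can be compared between genes only per length, and CPM per kilobase of the longest protein-coding transcript (RPKM) were used. In NSC the netrins led, with *Ntn1* at 48.4 ± 8.61 RPKM and *Ntn4* at 24.0 ± 4.08 RPKM (SD, n = 2). They were followed by *Robo1* at 12.03 ± 0.862 RPKM, *Robo2* at 5.92 ± 0.534 RPKM, *Unc5b* at 3.77 ± 0.462 RPKM, *Slit1* at 2.00 ± 0.749 RPKM and *Dcc* at 1.37 ± 0.0777 RPKM. *Robo3* at 0.603 ± 0.0683 RPKM and *Slit2* at 0.566 ± 0.0590 RPKM overlapped, whereas the ranges of all other neighbours in this order were separate. *Slit3* was last, at 0 and 0.00757 RPKM in the 2 cultures. In the libraries labelled NSC Bmi1Over, *Robo2* (7.15 and 7.56 RPKM) and *Unc5b* (6.33 and 8.19 RPKM) overlapped, and *Slit2* (0.958 and 0.994 RPKM) lay above *Robo3* (0.679 and 0.708 RPKM). The upper 3 places kept their order in both genotypes and under both lengths. When the union of all exons was used as length, a choice made after the data were seen, *Unc5b* (3.54 RPKM) came above *Robo2* (2.995 RPKM) in NSC and *Slit2*, whose exons add up to 25433 bp against 9960 bp in its longest coding transcript, fell to 0.222 RPKM and *Robo1* to 5.51 RPKM.

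Summed by class, the 2 netrins reached 63.4 and 81.4 RPKM in NSC and 118 and 123 RPKM in the libraries labelled NSC Bmi1Over. The 3 Robo genes summed to 18.7 and 18.4 RPKM against 27.6 and 29.7 RPKM, and the 3 Slit genes to 3.14 and 2.00 RPKM against 2.65 and 3.40 RPKM. With the union of exons as length, the mean Robo sum was 8.93 RPKM in NSC and 13.6 RPKM in the libraries labelled NSC Bmi1Over, and the mean Slit sum 2.14 and 2.34 RPKM. *Dcc* and *Unc5b* together summed to 4.87 and 5.41 RPKM in NSC against 7.25 and 9.47 RPKM in the libraries labelled NSC Bmi1Over. In every library the Robo sum exceeded the Slit sum, and the netrin sum exceeded that of *Dcc* and *Unc5b*. These sums cover the 10 genes alone and are no balance of ligands and receptors. They leave out, among others, the netrin receptor gene *Neo1*, at 35.6 RPKM in NSC, and *Nell2*, which encodes a ligand of Robo3, at 73.4 RPKM.

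A list of 43 other genes of these pathways, of which 42 were in the count files and 41 could be tested, was read beside the 10 genes. None was called by edgeR at an adjusted p under 0.05. At an unadjusted p under 0.05 there were 13 higher and 2 lower genes of the 41, against 17.0% and 7.22% of all genes tested, and DESeq2 called 7, against 10.1% of the 14154 genes to which it gave an adjusted p. The 2 lower genes, named after their values were seen, were *Myo10*, a myosin that carries Dcc into filopodia, at 370.6 and 284.4 CPM in NSC and at 197.1 and 190.2 CPM in the libraries labelled NSC Bmi1Over (adjusted p = 0.0555, edgeR), and *Nck1*, an adaptor bound by Robo and Dcc, at 26.2 and 26.8 CPM against 21.6 and 17.6 CPM. By class, the median log2 fold change was 0.43 for 4 other ligands, 0.53 for 7 other receptors and 0.50 for 6 co-factors of Slit and Robo at the membrane, which were all positive. It was −0.03 for 14 genes of Robo signalling and trafficking and −0.18 for 10 genes of netrin receptor signalling. The medians of the first 3 classes were thus above those of the 2 signalling classes, and this difference was not tested.

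The most abundant gene per length in each class was *Nell2*, a secreted ligand of Robo3, at 73.4 RPKM in NSC, *Neo1*, the netrin receptor neogenin related to Dcc, at 35.6 RPKM, *Dag1*, the dystroglycan that binds Slits in the matrix, at 137 RPKM, *Nedd4*, a ubiquitin ligase, at 213 RPKM and *Maged1*, a MAGE protein that binds Unc5 receptors, at 362 RPKM. *Nell2* was at 204.6 and 268.3 CPM in NSC and at 299.2 and 393.9 CPM in the libraries labelled NSC Bmi1Over, with a log2 fold change of 0.55 (standard error 0.19). *Neo1* had a log2 fold change of 0.38, *Dag1* of 0.56, *Nedd4* of −0.17 and *Maged1* of 0.42. None of these 5 genes passed the edgeR test, and DESeq2 called *Nell2*, *Dag1* and *Maged1*. *Neo1* was far above its relative *Dcc* in NSC, at 247.2 and 278.1 CPM against 14.7 and 13.6 CPM, and 35.6 against 1.37 RPKM per length.

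**Figure D3:**
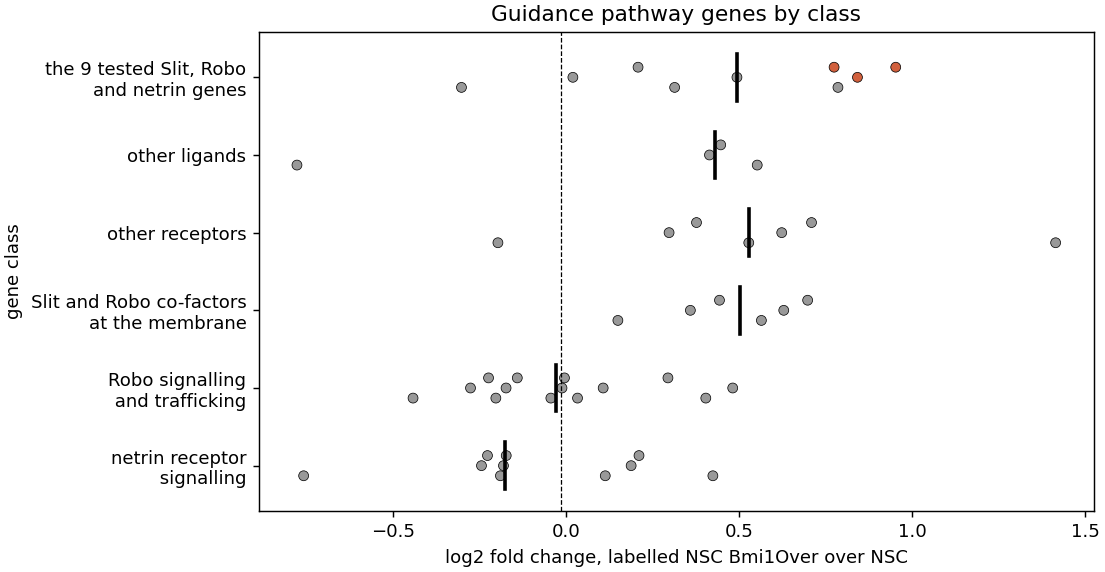
Log2 fold change of the libraries labelled NSC Bmi1Over over NSC for the 9 tested Slit, Robo and netrin genes and for 41 other pathway genes by class. Each point is 1 gene (orange where called), black bars are medians and the dashed line is the median of all genes at −0.01. The median bars of ligands, receptors and membrane co-factors stand at 0.43 or more, and those of the 2 classes of signalling genes stand below 0.

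In the ChIPSeq data, H3K27me3 peaks were listed at the promoters of *Slit1* and *Slit2* in NSC and at no promoter of the 10 genes in NSC Bmi1Over. A gene had a promoter peak if a peak reached to within 5 kb of one of its annotated transcription start sites (TSS). Such a peak was present in NSC at 8.83% of 22015 protein-coding genes, in NSC Bmi1Over at 4.38%, and in NSC alone, as at *Slit1* and *Slit2*, at 4.70%. The count of 2 of 10 is small, and with 1 library per genotype no difference between the lists was tested. The NSC list held 12982 peaks with fold enrichments from 3.52 and that of NSC Bmi1Over 6810 with fold enrichments from 4.03, so that no peak listed in NSC Bmi1Over was as low as those at the *Slit2* promoters in NSC (3.98 and 4.004), whereas that of *Slit1* (4.57) was above its lowest value. The lists do not hold the depth of their libraries, and the study's methods give read totals that differ between libraries and say that the weakest were dropped, partly on read number, without naming the library kept. The part of depth in the difference between the lists was not tested.

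The promoter peak of *Slit1* in NSC was 388 bp long, began 58 bp after the gene start and covered a TSS, at a fold enrichment of 4.57 (−log10 q 3.77). It held 40 CpG. NSC had 8 further peaks in *Slit1*, all between 120308 and 129619 bp after the gene start and between 200 and 645 bp long, with a fold enrichment of 3.52 to 5.18. Their nearest TSS was an internal one at 41608530, downstream of them by 5516 to 14591 bp and thus outside the window of 5 kb. The highest was the peak at coding exon 27 whose sequence is given above, and the 8 held between 0.500 and 3.26 CpG per 100 bases. NSC Bmi1Over had 1 peak of 200 bp among them (fold enrichment 5.14), in an intron, which overlapped none of the NSC peaks.

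*Slit2* had 2 promoter peaks in NSC and none elsewhere in the gene. The first, of 546 bp, lay in an intron 2737 bp after the gene start and 881 bp from the nearest TSS, at a fold enrichment of 3.98 (−log10 q 2.58). It held 41 CpG. The second, of 451 bp, lay 42 bp from another TSS and overlapped a coding exon, at a fold enrichment of 4.004 (−log10 q 2.63), and held 2 CpG. The single peak of NSC Bmi1Over in *Slit2*, of 200 bp, was in an intron 46718 bp after the gene start. Over the whole NSC list the median peak length was 355 bp and the median fold enrichment 4.06, so that all 3 promoter peaks were longer than the median, that of *Slit1* was higher and those of *Slit2* were slightly lower. Within 5 kb of the outermost TSS, peaks covered 388 bp at *Slit1* and 801 bp at *Slit2*, against a median of 1251 bp over the 1710 coding genes with any. With a minimum fold enrichment of 5 or a minimum length of 1000 bp neither promoter was marked, and with a −log10 q of at least 3 *Slit1* alone was.

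**Figure D4:**
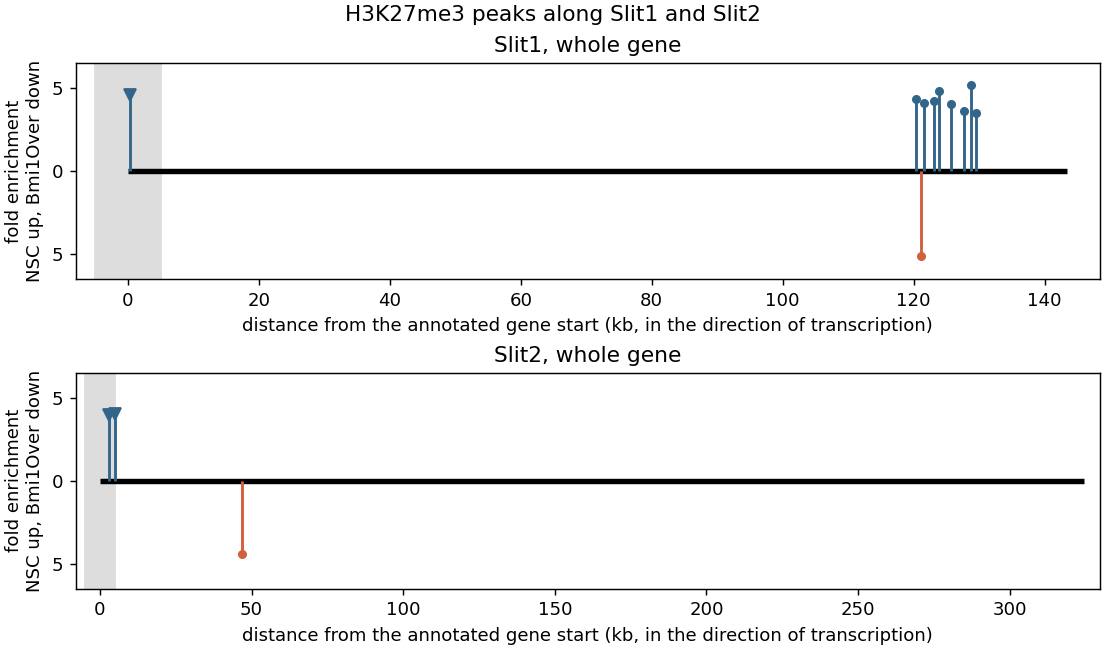
H3K27me3 peaks along *Slit1* and *Slit2* by distance from the gene start (kb, in the direction of transcription), drawn at their midpoints with the fold enrichment as height, NSC upwards in blue and NSC Bmi1Over downwards in orange. The black line is the gene, the grey band 5 kb to each side of the gene start, and triangles are promoter peaks. The 8 other NSC peaks of *Slit1* crowd near its 3′ end, and both NSC peaks of *Slit2* lie in the grey band or at its edge.

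The levels of *Slit1* and *Slit2* were set beside those of other marked genes. Coding genes with a promoter peak in NSC had a median of 0.127 and 0.122 RPKM in the 2 NSC cultures and those without one a median of 1.79 and 1.80 RPKM. Against these, *Slit1* with its peak was at 2.53 and 1.47 RPKM, near the median of the genes without a peak, and *Slit2* was at 0.608 and 0.524 RPKM, between the medians. Of the 2 genes that had a promoter peak in NSC alone, *Slit2* had a log2 fold change of 0.79 and *Slit1* of 0.02, and neither passed the edgeR test, while DESeq2 called *Slit2*. *Slit3*, without a peak, was below both medians.

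No peak was found in or near the other 8 genes, *Robo1*, *Ntn1* and *Unc5b* included. The nearest NSC peak to a TSS lay 133144 bp away at *Unc5b*, 166567 bp at *Ntn1*, 252526 bp at *Slit3* and 281881 bp at *Robo3*, and at *Ntn4*, *Dcc*, *Robo2* and *Robo1* between 1396150 and 4847879 bp. The 3 genes that rose were thus without an H3K27me3 peak in either list.

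Among the 42 other pathway genes in the count files, 4 had a promoter peak in NSC, the ligand *Ntng2* and the receptors *Unc5a*, *Unc5d* and *Dscaml1*, and *Dscaml1* had 1 in NSC Bmi1Over as well. *Ntng2*, a membrane-anchored netrin-G, was at 6.02 and 5.42 CPM in NSC and at 6.91 and 8.24 CPM in the libraries labelled NSC Bmi1Over. *Unc5a* was at 19.4 and 27.1 CPM against 32.2 and 39.0 CPM, with a log2 fold change of 0.62 and an adjusted p of 0.0939 in edgeR. *Unc5d* was at 1.81 and 1.58 CPM against 2.80 and 2.76 CPM, with a log2 fold change of 0.71. *Dscaml1*, a relative of the netrin receptor Dscam, was at 7.07 and 4.31 CPM against 0.800 and 8.35 CPM, and its 2 libraries labelled NSC Bmi1Over lay on both sides of NSC. With *Slit2*, 4 of the 6 pathway genes with a promoter peak in NSC had both libraries labelled NSC Bmi1Over above both NSC libraries, namely *Slit2*, *Ntng2*, *Unc5a* and *Unc5d*, an order found in 29.0% of all genes and in 21 of the 44 tested genes of the same lists without such a peak. None of these passed the edgeR test, and DESeq2 called *Slit2* and *Unc5a*.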

How the data were processed

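RNASeq libraries (TruSeq RNA kit, HiSeq2000) and H3K27me3 ChIPSeq libraries were analysed from the files the authors deposited. For RNASeq, reads were trimmed (Trim Galore) and aligned to mm10 (STAR), and the authors deposited raw counts of reads per gene. The unstranded counts were used, and reads that were unmapped, multi-mapped, ambiguous or in no gene (27.8% to 34.1% of all) stayed out. For ChIPSeq, the authors aligned reads with Bowtie2 2.3.4, kept 1 library per genotype and called broad peaks per library with MACS2, with the local background model switched off. The deposited peak lists give a fold enrichment (a ratio to background) and the −log10 of the p-value and q-value. Lengths and positions came from GENCODE vM21 (GRCm38, the build of the files), which 50462 of 50686 gene identifiers matched. None of the 10 genes shares exon sequence with another annotated gene.

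Counts of 15521 genes kept by filterByExpr were TMM-normalised (factors 0.932 to 1.08) and fitted with edgeR 4.0.16 (R 4.3.3, limma 3.58.1) by the quasi-likelihood test on genotype, with Benjamini-Hochberg adjustment over all tested genes and a threshold of 0.05. The biological coefficient of variation was 12.9%. The standard error was derived from the fold change and the F statistic. The steps were tested on simulated counts. DESeq2 1.42.0 and the other settings are alternatives. Peaks and sequences were handled in Python 3.11.15 with pysam 0.24.0. The labels call the RNASeq samples replicas and the methods call the cultures biologically independent.

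All 10 genes were described, and of the other pathway genes those past the threshold, ligands or receptors with a promoter peak, and the most abundant per length of each class. *Myo10* and *Nck1* were added after their values were seen. The genes and lists were chosen with earlier results of these data known.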

Additional observations from a re-analysis of the deposited data

How the results depend on the processing

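The count of the 10 genes called, 3 in the main setting, was 5 with DESeq2 or with no filter on low counts, 6 with a replicate block, and between 1 (without the second culture labelled NSC Bmi1Over) and 4 with 1 culture left out. It was 2 with DESeq2's size factors or a filter of 1 CPM in 2 libraries. Every call in every setting was of a higher gene. The count of other pathway genes called, 0 in the main setting, was 1 with library size alone (*Myo10*, named after its value was seen), 9 with no filter, 14 with the block, 7 with DESeq2 and between 0 and 8 with 1 culture left out. Over all genes, 334 calls became 537 with library size alone, 2356 with no filter, 3459 with the block, 1426 with DESeq2 and between 176 (without the first NSC culture) and 2546 (without the first culture labelled NSC Bmi1Over) with 1 culture left out. Of the genes tested, these calls made up 2.15% in the main setting, 3.46% with library size alone and 22.3% with the block. They made up 8.25% of 28541 genes with no filter and 10.1% of the 14154 genes with an adjusted p in DESeq2. With no filter, the block or DESeq2, the counts of the 10 genes and of the other pathway genes thus rose where the share over all genes rose as well. The cause was not tested.

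The log2 fold change of *Slit1*, 0.02, reversed to −0.14 with library size alone, to −0.0017 with no filter, and to −0.28 without the second culture labelled NSC Bmi1Over, and ranged from −0.32 (without the second NSC culture) to 0.46 with 1 culture left out. Library size alone moved the median of all genes to −0.165. Of 108 values of the 9 tested genes under 12 alternatives, 4 reversed, 5 lost a call, 9 gained one and 90 kept direction and call.

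Cultures with the same replicate number deviated together with a correlation of 0.272, but nothing in the labels says that they share more than a number. With the block, *Robo1*, *Ntn1*, *Unc5b*, *Slit2*, *Ntn4* and *Robo2* were called. Members with a promoter peak in NSC, 2 in the main setting, became 0 with a fold enrichment of at least 5 or a length of at least 1000 bp and 1 with a −log10 q of at least 3, and remained 2 with windows of 1 and 10 kb or the outermost TSS. In NSC Bmi1Over they numbered 0 in all 7 settings. With 1 culture left out, the lone library of a genotype was assumed to vary like the other genotype. ChIPSeq depth is not recorded in the lists.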
